A study of Saccharomyces cerevisiae with 12 samples.

Results

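The effect of losing Mre11 on DNA cleavage by topoisomerase 2 (Top2) in the presence of VP16 was examined in budding yeast. The 2 libraries of pdr1mre11 cells with VP16 were set against the 2 libraries of pdr1 cells with VP16, 4 of the 12 libraries of the series. All cells were of the BY4741 background (ura3Δ0, met17Δ0, his3Δ1, leu2Δ0) and carried the pdr1DBD-CYC8 cassette at PDR1, which represses drug exporters and so lets VP16 stay in the cell. The pdr1mre11 strain also lacked MRE11. Vegetative cultures of both strains were kept for 4 h in 1 mM VP16, and the untreated libraries of the same strains, 2 each, served as the background. CC-seq enriches DNA ends with a protein still attached, and each such end is mapped by its first base at the 5′ side, strand by strand, as a hit. Replicates were labelled as biological, and whether a strain came from more than 1 clone was not stated.

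Top2 passes one DNA duplex through a break in another. Its 2 subunits each cut one strand and stay linked through a tyrosine to the 5′ end they made, with a 4-base stagger between the cuts. VP16 (etoposide) slots into each cleaved bond and blocks resealing, and it does so with a preference for cytosine as the base before the bond. Mre11 is the nuclease of the MRX complex (Mre11, Rad50, Xrs2). With its cofactor Sae2 it nicks DNA near a blocked 5′ end and thereby releases the protein, so cells without Mre11 retain such adducts for longer.

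Few differences in where Top2 was trapped passed a test between the 2 strains in the main fits, which held no term for the replicate number. Of 25013 single sites 2 passed, both lower in pdr1mre11 cells and both inside the deleted MRE11 gene. The promoter window of NHP2, 1 of 5682, and 2 of 2382 tiles of 5 kb passed, all higher in pdr1mre11 cells. No site passed for strand balance and no 6-base word passed for the sequence at the bond. With the replicate number as a block, 206 sites, 1 site for strand balance, 1 promoter window, 11 tiles and 74 words were called. The share of sites with unequal strands was lower in both pdr1mre11 libraries than in both pdr1 libraries, with differences (pdr1mre11 minus pdr1) of -1.30 points between the replicate 1 libraries and -14.97 points between the replicate 2 libraries at equal depth. At full depth the groups overlapped.

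The maps matched the labels at MRE11 and did not at URA3. MRE11, on chromosome XIII from 718575 to 720653 in Cer3 coordinates, held 36 and 33 hits in the pdr1mre11 libraries, against 368 and 267 hits in the pdr1 libraries. An uninterrupted stretch without a hit ran for 2055 bp (718585 to 720639) in pdr1mre11 replicate 1 and for 2025 bp in replicate 2. The longest empty stretches of the gene and its flanks in pdr1 were 105 and 50 bp, the latter (718478 to 718527) beside the gene. SAE2, which both strains keep, had 79.3% and 87.5% of the mean hit density of the library in pdr1mre11 and 83.0% and 109% in pdr1. In pdr1sae2, labelled as lacking SAE2, the gene had 93.2% and 75.9% with VP16 and 28.4% and 36.8% untreated. So it was not empty in those libraries. PDR1 had 98.3% and 91.7% in pdr1mre11 and 103% and 93.5% in pdr1, and HIS3 had 38.3% and 41.4% in pdr1mre11 and 58.1% and 46.2% in pdr1. These densities leave out masked stretches, which had no hit in any library. Only 2284 of 3207 bp of PDR1 and 510 of 663 bp of HIS3 were unmasked, so they do not show whether either gene was whole. MET17 was masked but for 49 of 1335 bp, and LEU2, on chromosome III, was not examined. URA3, which BY4741 lacks (chromosome V, 116167 to 116970), held 0 and 31 hits in pdr1mre11, against 0 and 140 hits in pdr1. The 140 hits of pdr1 replicate 2 lay at 132 positions, a density of 124% of the mean of that library. Every replicate 2 library of the series held from 27 to 140 hits in URA3, and every replicate 1 library from 0 to 5. So the replicate 2 libraries went against the labelled background at this gene. What part this has in any result was not tested, and the results below are also given by replicate or without single libraries. Nuclear hits numbered 2480839 and 2947575 in pdr1mre11 and 2182234 and 1615079 in pdr1. Mitochondrial DNA took 0.173% and 0.261% of all hits in pdr1mre11, against 0.549% and 3.04% in pdr1. Where stated, libraries were thinned to 1615079 nuclear hits, the total of pdr1 replicate 2.

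A site was a Watson-strand hit position paired with the Crick-strand position 3 bp downstream, so that the bases from the first to the last of these form the 4-base overhang. The sequences below are shown because the single-site results turn on them. They comprise the 5 of the 8 strongest sites whose surrounding 40 bp is unique in the genome, then the 3 sites outside MRE11 with the smallest p for the number of hits, then the 3 sites with the smallest p for strand balance. They were read from the R64 reference sequence, on its plus (Watson) strand, with the overhang in capitals. A c just before the capitals is a cytosine at the Watson bond, and a g just after them is a cytosine at the Crick bond.
RIC1/AFB1, chrXII:228594-228617: catcaaaggcGTCGgtattgccga
HEM25/CYK3, chrIV:248122-248145: attctcgaatGGCTggtttggtgg
YNL050C/SFB2, chrXIV:535091-535114: cgtactgatcCGATgacttgaaaa
HOS3/BEM3, chrXVI:331843-331866: ctcttcgaccATTTggtcaagaag
SPC29, chrXVI:317338-317361: ccaacaagacGTATggcttacaaa
PRY1/PRY3, chrX:291219-291242: gactctgtgcGTACatattacctc
GPI18/RCR1, chrII:245721-245744: tttttcgatgATGAggcttacttt
KCS1, chrIV:482036-482059: tattgctatcTACAccattgttgt
PRP11/SIR2, chrIV:376595-376618: tagtgagatgGGCGgtacatgtaa
MGR3/ASC1, chrXIII:499203-499226: aaactaatacCACAataaaggaaa
YIP3, chrXIV:545328-545351: aaaactatacTAACgcgttaacct

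The strongest sites were shared by the strains and none of the 8 strongest passed the test. The strongest lay between RIC1, which acts in transport at the Golgi, and AFB1, which binds and blocks a-factor pheromone. It received 101 and 150 hits per 1000000 nuclear hits (HpM) in pdr1mre11, against 194 and 163 in pdr1, with cytosine at both bonds. The difference was -0.87 ± 0.27 (SE) on the log2 scale with an adjusted p of 0.969 by the quasi-likelihood test of edgeR. Both pdr1mre11 values were below both pdr1 values here, as at 3 others of these 8 sites. Over all 25013 sites fitted, 7.08% were below in this way by HpM and 27.9% above. Over the 408 sites off chromosome III with at least 300 hits, 10.8% were below and 14.5% above. The site between HOS3, a histone deacetylase gene, and BEM3, a regulator of the Cdc42 GTPase, had 100 and 90.2 HpM in pdr1mre11 and 132 and 123 in pdr1. The site between YNL050C and SFB2, which encodes a vesicle coat protein, had 114 and 104 in pdr1mre11 and 139 and 123 in pdr1. Libraries overlapped at the site between HEM25, a mitochondrial glycine carrier gene, and CYK3, which acts in cytokinesis, with 123 and 112 HpM in pdr1mre11 and 161 and 94.7 in pdr1. They overlapped also at the site inside SPC29, a spindle pole body gene, with 108 and 103 in pdr1mre11 and 129 and 96.0 in pdr1. The remaining 3 of the 8 lay in repeated sequence, 2 in the CUP1 metallothionein repeat and 1 near RRT15, and their log2 differences ran from -0.56 to -0.20. In the untreated libraries the RIC1/AFB1 site had 12 and 2 hits in pdr1mre11 and 2 and 1 hits in pdr1. Untreated hits were more at the HOS3/BEM3 site, with 145 and 16 in pdr1mre11 and 81 and 4 in pdr1. The site near RRT15 had 80 and 19 in pdr1mre11 and 51 and 3 in pdr1.

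**Figure D1:**
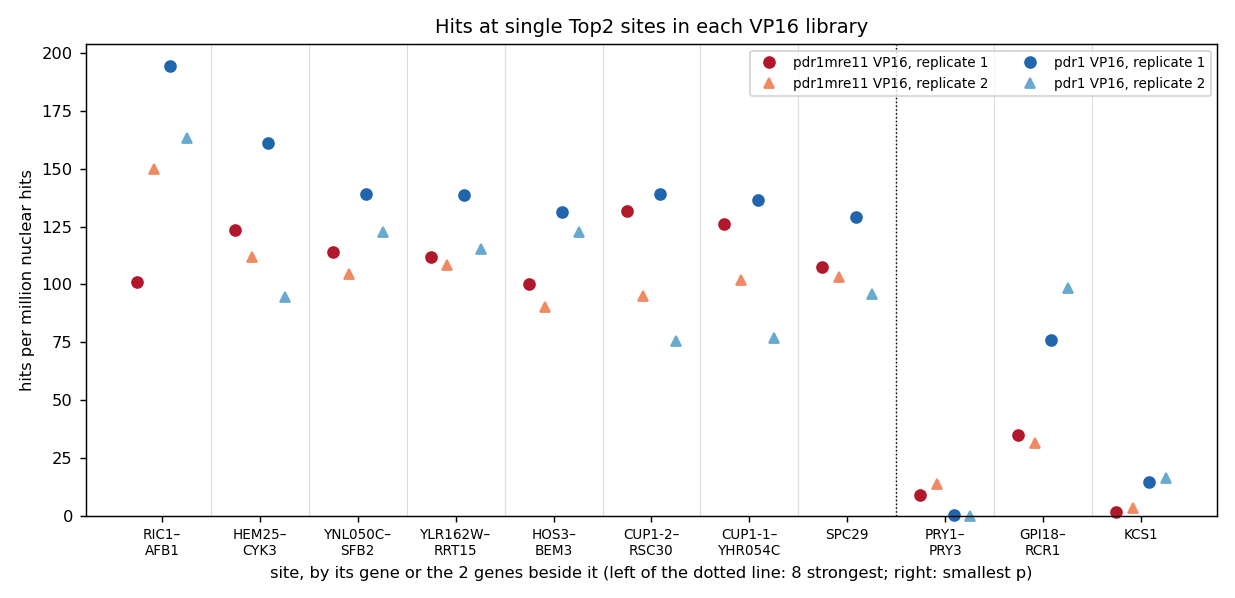
Hits per 1000000 nuclear hits (HpM, y axis) in each of the 4 VP16 libraries at the 8 strongest sites and at sites with the smallest p (x axis, named by gene), with pdr1mre11 points left of pdr1 points. At the strongest sites the libraries lie between 75.5 and 194 HpM in both strains, and the RIC1/AFB1 site is lower in both pdr1mre11 libraries.

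Across all sites with at least 40 hits over the 4 libraries, 2 of 25013 (0.008%) passed an adjusted p of 0.05, and 1137 (4.55%) had an unadjusted p under 0.05. Both called sites were the label check itself. The site at 720377 on chromosome XIII, within MRE11, had 0 and 0 hits in pdr1mre11, against 47 and 15 hits in pdr1 (adjusted p = 0.0016). The site at 718611 had 0 and 1 hits in pdr1mre11, against 35 and 10 hits in pdr1 (adjusted p = 0.0126). The median standard error of a site was 0.57 on the log2 scale, which limits what single sites can show. Leaving out pdr1 replicate 1 left 0 calls, and leaving out pdr1 replicate 2 gave 3. The count was 10 without pdr1mre11 replicate 1 and 18 without pdr1mre11 replicate 2. By HpM, both pdr1mre11 libraries lay above both pdr1 libraries at 6988 sites (27.9%) and below them at 1771 sites (7.08%). The median log2 difference over sites was 0.33 when total nuclear hits, as in HpM, set the library sizes and 0.04 with TMM. Sites apart were not counted again with TMM.

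Outside MRE11 no site passed the test, and the sites of smallest p ran in both directions. The site between PRY1 and PRY3, paralogs that encode secreted sterol-binding proteins, had 12 and 27 Watson hits and 10 and 13 Crick hits in pdr1mre11. In pdr1 it had 0 and 0 Watson hits and 1 and 0 Crick hits. That is 8.87 and 13.6 HpM in pdr1mre11, against 0.46 and 0 in pdr1, and the groups did not overlap. With 62 hits in pdr1mre11 and 1 in pdr1, the ratio of HpM was 43.4, with an exact 95% counting interval of 7.5 to 1740, and the adjusted p was 0.16. All 4 untreated libraries had 0 hits there, and the VP16 libraries of pdr1sae2, the strain labelled as lacking SAE2, had 2 and 14. The call depended on processing, as the adjusted p was 0.0445 with total nuclear hits as library sizes, 0.0247 with all 12 libraries in the fit and 0.00236 without pdr1mre11 replicate 1. Over all alternatives without a replicate block it ran from 0.00014 (spike-in library sizes) to 1 (DESeq2). In the other direction, the site in the divergent region between GPI18, a mannosyltransferase gene of GPI anchor synthesis, and RCR1, a gene of the cell wall, had 34.7 and 31.2 HpM in pdr1mre11, against 76.1 and 98.4 in pdr1. Its log2 difference was -1.82 ± 0.35 (SE), with an adjusted p of 0.216, and it turned to 0.43 with spike-in library sizes. The site in KCS1, an inositol polyphosphate kinase gene, had 1.61 and 3.39 HpM in pdr1mre11 and 14.7 and 16.1 in pdr1 (log2 difference -2.93, adjusted p = 0.216).

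Differences between the strains overlapped in size with those between replicates of one strain. At equal depth, site counts of the 2 pdr1mre11 libraries correlated with r = 0.777 and those of the 2 pdr1 libraries with r = 0.752. Between strains r was 0.819 for the replicate 1 libraries and 0.737 for the replicate 2 libraries, and 0.678 and 0.793 for the crossed pairs. These are correlations across sites, which are not independent replicates. The replicate 1 libraries of the 2 strains shared 684 of their 1000 strongest sites, more than the 2 libraries of pdr1mre11 (589) or of pdr1 (613) shared. At the 414 sites with at least 300 hits, the log2 ratio of 2 libraries had an SD of 0.58 within pdr1mre11 and 0.59 within pdr1, and from 0.47 to 0.78 between the strains.

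Sites off chromosome III were also described by class. The median log2 difference was 0.06 over 10525 sites with cytosine at both bonds, 0.03 over 12650 with cytosine at one bond and -0.17 over 1224 with cytosine at neither bond, beside 0.04 over all 24399. In the class with cytosine at neither bond 17.1% of the sites were above and 15.9% below in both pdr1mre11 libraries, beside 28.0% above and 7.07% below over all 24399. Over the 408 sites with at least 300 hits the median was -0.20, and over the 19500 sites with 40 to 99 hits it was 0.06. Sites in reading frames had a median of 0.09, in divergent regions 0.04, in tandem regions -0.02 and in convergent regions -0.07. The 17 sites beyond the outermost reading frame of a chromosome had a median of 0.17.

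Strand balance compares the 2 bonds of a site. A site was called noncognate where a two-sided exact binomial test of its Watson against Crick hits gave p of 0.05 or less, among sites with at least 8 hits. At equal depth, 36.0% of 27926 and 23.0% of 27831 sites were noncognate in pdr1mre11, against 37.3% of 26552 and 38.0% of 14274 in pdr1. The 95% Wilson intervals were 35.5% to 36.6% and 22.5% to 23.5% in pdr1mre11, and 36.8% to 37.9% and 37.2% to 38.8% in pdr1. The means were 29.5% ± 9.20 in pdr1mre11 and 37.7% ± 0.467 in pdr1 (SD, n = 2 each). The groups did not overlap at this depth, but most of the difference lay between the replicate 2 libraries. At full depth the groups overlapped, with 39.2% and 27.0% in pdr1mre11 and 38.8% and 38.0% in pdr1, and the replicate 1 difference was 0.33 points, higher in pdr1mre11. Without pdr1mre11 replicate 2 the difference was -1.63 points, and without pdr1mre11 replicate 1 it was -14.6 points. Untreated libraries thinned to 685100 hits had 27.0% and 30.1% noncognate sites in pdr1mre11 and 24.9% and 33.1% in pdr1, from 260 to 3079 sites a library, while at that depth the VP16 libraries had 29.3% and 18.9% in pdr1mre11 and 31.7% and 33.6% in pdr1. Pdr1mre11 replicate 2 with VP16 thus had the lowest share of these 8 libraries.

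A measure less bound to a p-value gave the same order. Sites with at least 90% of their hits on one strand held 18.7% and 8.16% of the hits at sites of 8 or more in pdr1mre11, against 19.8% and 22.2% in pdr1. The Watson and Crick counts at the 3 bp offset correlated across sites with r = 0.508 and 0.610 in pdr1mre11 and 0.508 and 0.445 in pdr1. The replicate 1 libraries were again close to each other and the replicate 2 libraries apart. In all, 8 summary measures were compared between the strains, and 2 of them, the noncognate and the one-stranded share, did not overlap. The difference in the noncognate share was -8.14 points beside a within-group SD of 6.51, and in the one-stranded share -7.53 points beside 5.42. An exact two-sided permutation test of 2 against 2 libraries cannot go below p = 0.333, which both shares reached, and over the 8 measures the Benjamini-Hochberg adjusted p was 1 for each in these exact tests.

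**Figure D2:**
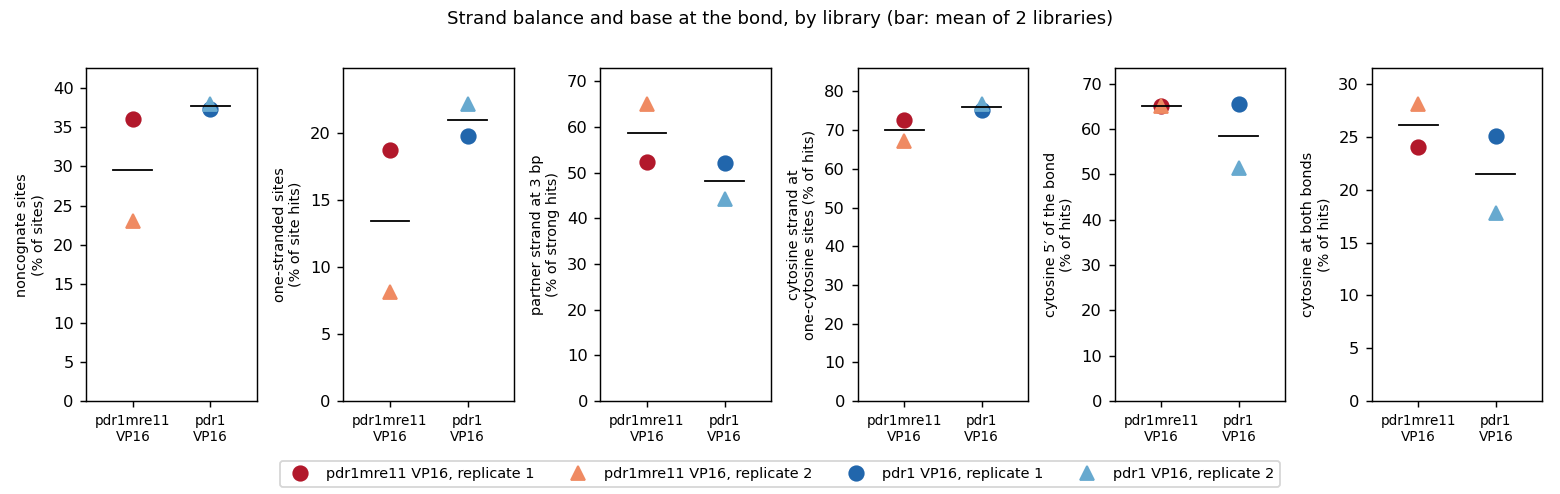
Strand balance and base at the bond by library, with pdr1mre11 left of pdr1 and the bar at the mean of 2 libraries; each y axis starts at 0. The noncognate share of pdr1mre11 replicate 2, 23.0%, and the cytosine share of pdr1 replicate 2, 51.4%, are the points that stand apart.

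No single site passed the test for strand balance. Of 25013 sites 0 were called by edgeR (0%) and 0 by DESeq2, while 409 (1.64%) and 45 had an unadjusted p under 0.05. The smallest p belonged to 3 sites of differing kind. Between PRP11, a splicing factor gene, and SIR2, the silencing deacetylase gene, Watson hits made up 21.8% and 8.47% of the site in pdr1mre11 and 0.91% and 1.43% in pdr1. Between MGR3, a mitochondrial protease adaptor gene, and ASC1, which encodes a ribosome-bound scaffold protein, they made up 88.5% and 81.2% in pdr1mre11 and 100% and 100% in pdr1, where 34 and 34 Watson hits stood beside 0 and 0 Crick hits. In YIP3, a gene of vesicle transport, 1 of 11 and 4 of 15 hits were on Watson in pdr1mre11, against 10 of 12 and 6 of 7 in pdr1. The adjusted p was 1 at each of the 3 sites by edgeR. The PRP11/SIR2 site has cytosine at the Crick bond only, and the MGR3/ASC1 site at the Watson bond only. At both, the strand without cytosine held more of the hits in pdr1mre11 than in pdr1.

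The same direction was seen over all sites with cytosine at one bond, with a smaller difference between the replicate 1 libraries than between the replicate 2 libraries. At equal depth, 72.6% and 67.3% of the hits at such sites lay on the strand with cytosine in pdr1mre11, against 75.3% and 76.8% in pdr1. Of these sites 42.8% and 29.5% were noncognate in pdr1mre11, against 48.2% and 49.0% in pdr1. At sites with cytosine at neither bond the noncognate share was 32.8% and 22.0% in pdr1mre11, against 43.2% and 53.9% in pdr1. In both of these classes all pdr1mre11 libraries lay below all pdr1 libraries. Sites with cytosine at both bonds overlapped, with 26.8% and 15.97% in pdr1mre11 and 21.6% and 21.9% in pdr1. Of the noncognate sites with cytosine at one bond, the strand with cytosine was the stronger in 95.9% and 95.9% in pdr1mre11 and in 97.1% and 96.4% in pdr1. These class values are given with no test of their own.

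Hits on the other strand were also examined around strong positions, those with at least 20 hits at equal depth (3130 and 3019 in pdr1mre11, 3223 and 1417 in pdr1). The partner at 3 bp held 52.2% and 65.1% as many hits as the strong positions in pdr1mre11, against 52.1% and 44.2% in pdr1. Outside the partner, the offset of -1 bp held 3.96% and 1.96% in pdr1mre11 and 2.66% and 1.27% in pdr1. At 7 bp the values were 3.13% and 1.99% in pdr1mre11 and 2.86% and 1.92% in pdr1. At 3 bp the strains did not overlap, although their replicate 1 libraries were nearly equal, and the libraries overlapped at -1 and at 7 bp.

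**Figure D3:**
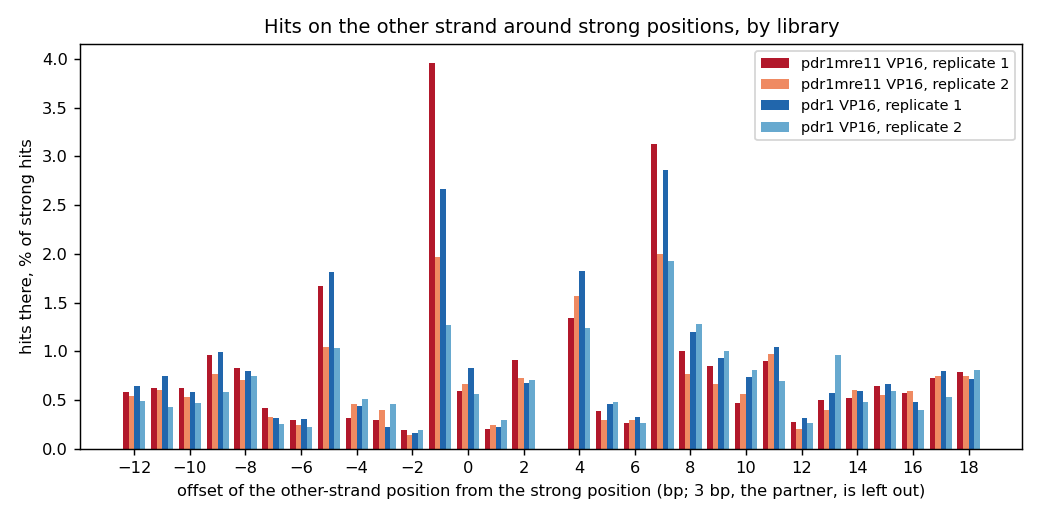
Hits on the other strand (y axis, percent of the hits at strong positions) by offset from the strong position in bp (x axis). The 3 bp partner is left out, and each offset has 1 bar per VP16 library. The offset of -1 bp is highest in pdr1mre11 replicate 1, at 3.96%, and lowest in pdr1 replicate 2, at 1.27%.

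The base before the cleaved bond was cytosine in 65.0% and 65.1% of hits in pdr1mre11, against 65.6% and 51.4% in pdr1, at full depth. The means were 65.1% ± 0.0853 in pdr1mre11 and 58.5% ± 10.0 in pdr1 (SD, n = 2 each). In untreated libraries the share was 21.6% and 22.6% in pdr1mre11 and 22.9% and 21.9% in pdr1. The lower mean of pdr1 rested on replicate 2. Without it the strains differed by -0.52 points, and among positions with at least 5 hits the difference was -2.57 points, with 81.8% and 83.1% in pdr1mre11 and 83.5% and 86.5% in pdr1. Pdr1 replicate 2 also had the fewest hits per position hit, 1.36, beside 1.93 in pdr1 replicate 1 and 2.07 and 2.08 in pdr1mre11. This value rises with depth and was taken at full depth, where pdr1 replicate 2 had the fewest nuclear hits, 1615079. Yet pdr1 replicate 2 hit more positions, 1185908, than pdr1 replicate 1, which hit 1133454 with 2182234 nuclear hits. The pdr1mre11 libraries hit 1200126 and 1419305 positions. Sites with cytosine at both bonds took 24.1% and 28.1% of hits in pdr1mre11 and 25.1% and 17.8% in pdr1, against an untreated background of 4.67% and 4.61% in pdr1mre11 and 4.68% and 4.37% in pdr1.

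Around the bond, bases were numbered from the dyad axis without a 0, so that -3 is the base before the bond and -2 the hit base. Of 80 pairs of position and base over 20 positions, 17 (21.25%) did not overlap between the strains, and 6 of these also differed by over 1 percentage point between the replicate 1 libraries. Adenine at 2, the last base of the overhang, made up 26.1% and 24.2% in pdr1mre11, against 28.7% and 28.0% in pdr1. Thymine at 4 made up 35.6% and 34.6% in pdr1mre11, against 33.4% and 32.0% in pdr1. Adenine at -1 made up 28.4% and 28.8% in pdr1mre11, against 30.1% and 30.2% in pdr1. Guanine at 3, which is a cytosine before the partner bond, made up 38.2% and 44.6% in pdr1mre11 and 38.1% and 31.8% in pdr1, a difference of 0.17 points between the replicate 1 libraries. At -2, the hit base, the libraries overlapped for every base, so none is among the 17. Guanine there made up 36.1% and 25.7% in pdr1mre11 and 30.7% and 20.4% in pdr1. Thymine there made up 6.70% and 14.6% in pdr1mre11 and 12.96% and 18.9% in pdr1. Between libraries of equal replicate number, guanine was higher and thymine lower in pdr1mre11 each time, while adenine and cytosine changed direction.

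The 6-base word from the base before the bond through the overhang to the base after it held no called difference. Of 4088 words 0 (0%) were called by edgeR and 0 by DESeq2, with 165 (4.04%) and 111 at an unadjusted p under 0.05. By HpM the libraries did not overlap at 31.6% of the words, with pdr1mre11 above pdr1 at 365 (8.93%) and below it at 925 (22.6%). Counts without a library were 3 without pdr1 replicate 2 and 5 without pdr1mre11 replicate 2, and 0 without either replicate 1 library. The 6 words with the highest density per genomic occurrence held CG as their last bases, save CGGATG, and all began with C. CCCCCG had 892 and 1527 HpM for every 1000 genomic occurrences in pdr1mre11 and 1336 and 903 in pdr1. CATCCG had 1117 and 929 in pdr1mre11 and 886 and 476 in pdr1. CATCCG and CGGATG are reverse complements, that is, the same sites read from either bond, and CGGATG had 1016 and 691 in pdr1mre11 and 894 and 387 in pdr1. The smallest p belonged to words rich in adenine and thymine, at low density. TTCAAA had 0.317 and 2.48 in pdr1mre11 and 2.26 and 12.3 in pdr1, a log2 difference of -1.97 ± 0.60 (SE) with an adjusted p of 0.936 by edgeR. The libraries of the strains overlapped for this word. Over all words the median log2 difference was -0.11 with TMM and -0.44 with total nuclear hits.

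Promoter regions were enriched in both strains. Divergent and tandem intergenic regions, which hold promoters, took 39.8% and 36.7% of the hits off chromosome III in pdr1mre11 and 38.6% and 33.0% in pdr1. The untreated background was 26.3% and 26.5% in pdr1mre11 and 24.1% and 25.0% in pdr1. The means with VP16 were 38.2% ± 2.19 in pdr1mre11 and 35.8% ± 3.97 in pdr1 (SD, n = 2 each), a difference of 2.43 points that became -0.38 without pdr1 replicate 2. These libraries overlapped. Set against convergent regions, which hold no promoter, the density of promoter regions did not overlap, with log2 ratios of 0.52 and 0.66 in pdr1mre11 and 0.48 and 0.32 in pdr1, and the exact two-sided permutation test gave its smallest p, 0.333. The density 200 bp upstream of start codons relative to long reading frames, on the log2 scale, was 1.51 and 1.32 in pdr1mre11 and 1.51 and 1.10 in pdr1, against 0.40 and 0.40 in untreated pdr1mre11 and 0.19 and 0.28 in untreated pdr1. Relative to the mean of the library, divergent regions had a density of 1.76 and 1.67 in pdr1mre11 and 1.67 and 1.43 in pdr1. Reading frames had 0.751 and 0.804 in pdr1mre11 and 0.767 and 0.846 in pdr1. Around the start codon the density peaked in the bin centred 113 bp upstream, at 2.80 and 2.59 times the mean in pdr1mre11 and 2.89 and 2.30 in pdr1.

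**Figure D4:**
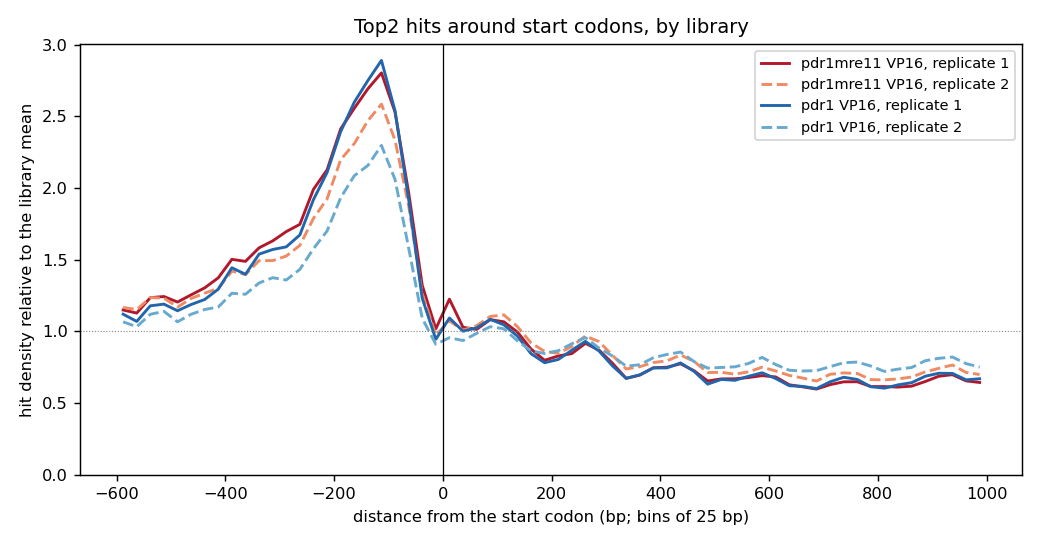
Hit density relative to the library mean (y axis) by distance from the start codon (x axis, bins of 25 bp, negative upstream), 1 line per VP16 library, pdr1mre11 listed before pdr1. The peak upstream reaches 2.80 and 2.59 in pdr1mre11 and 2.89 and 2.30 in pdr1, and the replicate 1 lines of the strains lie close to each other there.

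Of 5682 windows of 200 bp before start codons 1 (0.0176%) passed the test, and 277 (4.88%) had an unadjusted p under 0.05. The called window belonged to NHP2 (YDL208W, a component of the H/ACA snoRNPs that modify ribosomal RNA) on chromosome IV from 87312 to 87511. It held 159 and 122 hits in pdr1mre11, against 55 and 30 hits in pdr1, which is 64.1 and 41.4 HpM in pdr1mre11 and 25.2 and 18.6 in pdr1. The log2 difference was 1.16 ± 0.25 (SE), with an adjusted p of 0.025. Untreated, the window held 103 and 20 hits in pdr1mre11 and 47 and 11 in pdr1. Nuclear hits there numbered 3463679 and 1023337 in pdr1mre11 and 2586068 and 685100 in pdr1. Relative to these totals both untreated pdr1mre11 libraries were also higher, so the direction was not particular to VP16. Of the hits in the window, 78 and 58 in pdr1mre11 and 25 and 9 in pdr1 lay at its 4 strongest sites, the strongest of which, at 87437, had 40 and 26 hits in pdr1mre11 and 18 and 7 in pdr1. The call was lost without pdr1mre11 replicate 1, without either pdr1 library, with DESeq2, with library sizes from total hits, with a minimum of 100 hits, with thinned libraries and with 6 or 12 libraries in the fit, while the log2 difference stayed between 0.89 and 1.39 when single libraries were left out. Over all windows, the number of calls without pdr1mre11 replicate 1 was 5, and without either pdr1 library it was 0.

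The windows with the most hits did not pass the test. The window of RIC1, which contains the strongest site, had 127 and 178 HpM in pdr1mre11 and 238 and 193 in pdr1 (log2 difference -0.57). The window of RRT15 had 670 and 824 HpM in pdr1mre11 and 834 and 523 in pdr1 (log2 difference 0.08), and the strongest site near it lies in 40 bp that occur in 3 copies. Those of CUP1-1, CUP1-2, YHR052C-B and YHR054C-B overlap one another or are repeats of one another, so that reads among them could be assigned to any copy. The windows of smallest p that were not called all lay higher in both pdr1mre11 libraries. YLR415C had 80 and 140 hits in pdr1mre11 against 49 and 25 in pdr1 (log2 difference 0.99, adjusted p = 0.55), and CMI8 had 126 and 145 in pdr1mre11 against 65 and 34 in pdr1 (log2 difference 0.88, adjusted p = 0.61). RPS17B, a ribosomal protein gene, had 185 and 248 hits in pdr1mre11 against 107 and 55 in pdr1 (log2 difference 0.85 ± 0.25, SE). POP3, a gene of the RNase P and RNase MRP complexes, had 124 and 205 hits in pdr1mre11 against 80 and 41 in pdr1 (log2 difference 0.87). Both had an adjusted p of 0.61.

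Promoter windows of genes tied to this system were described by list, and no window of any list was called, beside 0.0176% over all windows. In all windows, both pdr1mre11 libraries were above both pdr1 libraries in 20.2%, and below them in 10.5%, by HpM, with a median log2 difference of 0.00. Of 17 genes of MRX and Top2 adduct repair, 8 were above and 1 below, and the median was 0.05. RAD50, the ATPase partner of Mre11, had 81 and 90 hits in pdr1mre11 and 55 and 38 in pdr1 (log2 difference 0.29). TDP1, which removes topoisomerase peptides from DNA ends, had 148 and 180 hits in pdr1mre11 and 122 and 71 in pdr1 (log2 difference 0.19). The 1 window below was that of MRE11 itself, with 44 and 58 hits in pdr1mre11 and 76 and 34 in pdr1 (log2 difference -0.66, adjusted p = 0.90), next to the deletion.

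The other repair and damage lists had medians near that of all windows, of which 20.2% were above and 10.5% below. Of 14 genes of end joining and recombination, 4 were above and 1 below, with a median of 0.07. RAD57, a gene of recombinational repair, had 161 and 186 hits in pdr1mre11 and 174 and 108 in pdr1 (log2 difference -0.28). Of 14 damage-induced genes, 4 were above and 0 below, with a median of 0.06. Among these RNR3, a ribonucleotide reductase gene induced by damage, had 63 and 48 hits in pdr1mre11 and 33 and 22 in pdr1 (log2 difference 0.43). Of the 3 topoisomerase genes 1 was above and 1 below, with a median of 0.19. TOP2 had 109 and 104 hits in pdr1mre11 and 96 and 33 in pdr1 (log2 difference 0.19), and TOP1 had 78 and 82 in pdr1mre11 and 70 and 54 in pdr1 (log2 difference -0.23).

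Of 8 windows of genes tied to drug export under Pdr1, 0 were above and 2 below, with a median of -0.21. Both strains carried the cassette, and expression of these genes was not measured. SNQ2, a multidrug exporter gene, had 145 and 144 hits in pdr1mre11 and 156 and 62 in pdr1. PDR5, the main multidrug exporter gene, had fewer, with 19 and 27 hits in pdr1mre11 and 15 and 21 in pdr1, and PDR15 had 11 and 28 in pdr1mre11 and 21 and 22 in pdr1. Of 8 core histone windows 3 were above and 1 below (median -0.01), and of 9 cyclin windows 2 were above and 2 below (median -0.10). CLB1, a mitotic cyclin gene, had 45 and 51 hits in pdr1mre11 and 26 and 21 in pdr1 (log2 difference 0.43). Ribosomal protein genes, which are highly transcribed, had the largest list. Of their 136 windows 34 (25.0%) were above and 2 (1.47%) below, and the median was 0.11. Over all windows 20.2% were above and 10.5% below. RPL37A had 184 and 182 hits in pdr1mre11 against 103 and 49 in pdr1 (log2 difference 0.71).

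In tiles of 5 kb, 2 of 2382 (0.084%) passed the test, and 179 (7.51%) had an unadjusted p under 0.05. The tile on chromosome XII from 920001 to 925000, which holds BDF1, a bromodomain protein gene, and DUS3, a gene of tRNA modification, had 403 and 488 HpM in pdr1mre11, against 302 and 359 in pdr1 (log2 difference 0.45 ± 0.11 SE, adjusted p = 0.0452). The tile on chromosome XV from 985001 to 990000, which holds PYK2, a pyruvate kinase gene, and the proline permease gene PUT4, had 455 and 529 in pdr1mre11, against 362 and 381 in pdr1 (log2 difference 0.42 ± 0.10 SE, adjusted p = 0.0452). Each lost its call with DESeq2, with total hits, with thinned libraries, with 6 or 12 libraries in the fit, and when any library other than pdr1mre11 replicate 1 was left out. In all, 11 tiles were called without pdr1mre11 replicate 1, 2 others without pdr1mre11 replicate 2, 1 without pdr1 replicate 1 and 0 without pdr1 replicate 2. The tile from 290001 on chromosome X, which contains the PRY1/PRY3 site, had 461 and 661 HpM in pdr1mre11 and 424 and 414 in pdr1, with an adjusted p of 0.0591.

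Tiles from 10 to 100 kb from chromosome ends had a lower hit density in both pdr1mre11 libraries. This grouping was chosen after the tile values were seen and is given as a description. Relative to the mean of the library, the 89 tiles from 10 to 25 kb from an end had a hit density of 0.851 and 0.864 in pdr1mre11, against 0.919 and 0.951 in pdr1. The 149 tiles from 25 to 50 kb had 0.907 and 0.929 in pdr1mre11, against 0.963 and 0.995 in pdr1. The 300 tiles from 50 to 100 kb had 0.972 and 0.973 in pdr1mre11, against 0.989 and 0.996 in pdr1. The libraries did not overlap in any of these zones. Within 10 kb of the end, 42 tiles had 0.724 and 0.710 in pdr1mre11 and 0.714 and 0.785 in pdr1, and these libraries overlapped. The 1737 tiles over 100 kb from an end had 1.026 and 1.024 in pdr1mre11, against 1.015 and 1.008 in pdr1. There both pdr1mre11 libraries were higher. Untreated, the zone from 10 to 25 kb had 1.00 and 0.964 in pdr1mre11 and 1.01 and 0.980 in pdr1, with overlap. Untreated tiles within 10 kb of an end had 0.855 and 0.875 in pdr1mre11, against 0.936 and 0.930 in pdr1, and did not overlap. Tiles within 10 kb of a centromere had 1.26 and 1.27 in pdr1mre11 and 1.34 and 1.29 in pdr1.

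**Figure D5:**
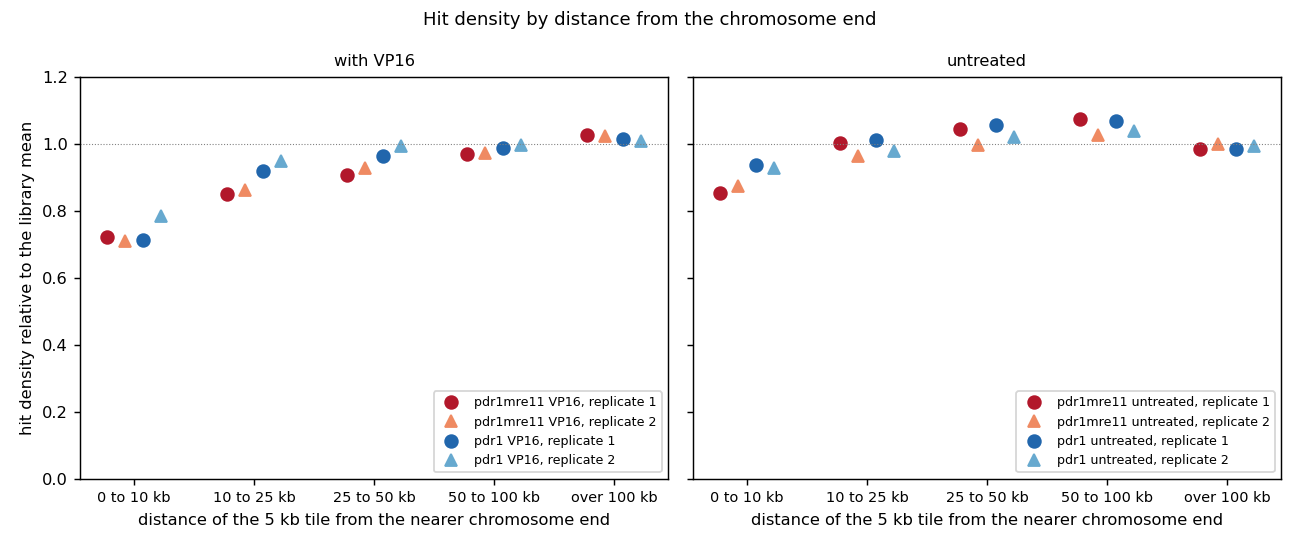
Hit density relative to the library mean (y axis) by distance of a 5 kb tile from the nearer chromosome end (x axis, in kb), for VP16 libraries and untreated libraries, pdr1mre11 before pdr1. In each zone from 10 to 100 kb both pdr1mre11 libraries with VP16 lie below both pdr1 libraries, at 0.851 to 0.973 against 0.919 to 0.996.

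In 6 of 16 chromosomes both pdr1mre11 libraries had a lower relative density than both pdr1 libraries, in 2 they had a higher one, and in 8 the libraries overlapped. The 6 included the 4 shortest, I, VI, III and IX. Chromosome I had 0.897 and 0.954 in pdr1mre11 and 0.959 and 0.998 in pdr1, and chromosome III had 0.935 and 0.939 in pdr1mre11 and 0.989 and 1.00 in pdr1. Chromosome IV, the longest in the reference, had 1.02 and 1.02 in pdr1mre11 and 1.01 and 1.00 in pdr1. With the outer 25 kb left out at each end, chromosomes I, IX and X overlapped, while VI and XIII were still lower in both pdr1mre11 libraries. Chromosome I then had 0.972 and 1.05 in pdr1mre11 and 1.04 and 1.06 in pdr1, and chromosome III was not examined in this way.

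All of the above describes where hits lay, not how many Top2 adducts a cell held. The authors deposited a factor from human spike-in DNA that calibrates the total, 7.69 for pdr1mre11 with VP16 and 2.19 for pdr1 with VP16, a ratio of 3.51. There is 1 factor for each strain and treatment, shared by its 2 libraries, so this ratio has no replicate error and was not tested. With library sizes set by the factor, 22728 of 25013 sites were called higher in pdr1mre11 and the 2 within MRE11 lower. The median site difference was then 2.15 on the log2 scale. As the factor shifts all sites of a group alike, these calls restate the ratio and are no test of it.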

How the data were processed

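Alignment by the authors used Bowtie2 and their own Cer3H4L2 build. They kept reads of mapping quality 0, removed rDNA, telomeric and retrotransposon sequence, and deposited counts, as whole hits per nucleotide and strand with no normalization. The deposited spike-in factor is a ratio per group. Reads held no molecular identifiers, so intervals cover counting error only. Stretches of at least 100 bp without a hit in any library were treated as masked. Annotation and sequence came from R64, and chromosome III was left out wherever they were used.

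Hits were summed over sites, over windows of 200 bp before start codons with at least 50 unmasked bases, over 5 kb tiles and over 6-base bond words, with at least 40 hits over the 4 libraries. They were fitted with the quasi-likelihood test of edgeR 4.0.16 (TMM, Benjamini-Hochberg over all features, adjusted p under 0.05) in R 4.3.3, on the 4 VP16 libraries with no covariate. Strand balance was fitted as strand by strain. Summary measures were compared by exact permutation tests. Libraries were thinned to equal depth for the noncognate share, the one-stranded share, the strand correlation and the share of the strongest sites. The cytosine, upstream and promoter measures used full depth. Alternatives were DESeq2 1.42.0, other library sizes, other minimum hits, thinning, more libraries, a replicate block and leaving out each library. Scripts were tested on simulated data. Named features were the strongest by mean, the called ones, and the 3 of smallest p where fewer than 3 were called. The members and lists were chosen with earlier results of these data known.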

Additional observations from a re-analysis of the deposited data

How the results depend on the processing

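The calls were few and rested on the processing. With DESeq2, 1 site, 0 promoter windows and 0 tiles were called, and with library sizes from total nuclear hits 0 promoter windows and 0 tiles. Library sizes from the spike-in factor, which hold no calibration error, called 22730 sites, 5642 promoter windows, 2380 tiles and 1853 words, nearly all higher in pdr1mre11. At a minimum of 8 hits 4 sites were called and at a minimum of 100 hits 0 sites and 0 promoter windows. Thinned libraries gave 1 site, 0 promoter windows and 0 tiles, and fits with 6 or 12 libraries gave 0 promoter windows and 0 tiles. Leaving out single libraries gave 0 to 18 sites, 0 to 5 promoter windows, 0 to 11 tiles and 0 to 5 words, and 0 sites for strand balance. Spike-in sizes turned the direction of 9 named sites, with log2 differences of 1.32 (RIC1/AFB1), 1.71 (HEM25/CYK3), 1.57 (YNL050C/SFB2), 1.62 (near RRT15), 1.42 (HOS3/BEM3), 1.90 and 1.92 (CUP1 repeat), 1.73 (SPC29) and 0.43 (GPI18/RCR1, not called). They turned 7 promoter windows, to 1.83 (CUP1-1), 1.81 (CUP1-2), 1.54 (YNL050C), 1.80 (YHR052C-B), 1.82 (YHR054C-B), 1.34 (RIC1) and 1.83 (BET4).

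Summary differences were reversed without pdr1 replicate 2 in the cytosine share (-0.52), upstream density (-0.10 on the log2 scale), promoter share (-0.38) and share of the 1000 strongest sites (-0.37). They were also reversed at positions with at least 5 hits for cytosine (-2.57), at sites with at least 8 hits for cytosine at both bonds (-0.98) and with 100 in place of 1000 sites (-0.051). Leaving out single libraries, the difference ran from -14.6 to -1.63 points for noncognate sites, -12.8 to -2.25 for one-stranded hits, -0.52 to 13.6 for cytosine, 1.02 to 8.28 for cytosine at both bonds, -0.10 to 0.31 for upstream density, -0.38 to 5.24 for promoters, 0.03 to 0.13 for the strand correlation and -0.37 to 0.77 for the strongest sites. The cause was not tested in any case.

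The replicate numbers are shared by the strains, but nothing in the labels states that libraries of equal number were handled together. The numbers in the library names run through all replicate 1 libraries first and then through all replicate 2 libraries. Deviations of same-numbered libraries correlated with r = 0.27 over tiles and 0.35 over sites, from 2 pairs only. With the replicate number as a block, 206 sites, 1 site for strand balance, 1 promoter window, 11 tiles and 74 words were called. Of the 206 sites 192 were lower and 14 higher in pdr1mre11. The adjusted p of edgeR with the block was 7.4e-09 for GPI18/RCR1, 3.35e-06 for KCS1, 4.47e-05 for PRY1/PRY3, 0.00163 for RIC1/AFB1 and 0.0312 for HOS3/BEM3, against 0.16 or more without it. The replicate 2 libraries also share the hits in URA3. The block left every summary difference at its value, and the exact test within 2 pairs cannot go below p = 0.5. The median standard error of a single site was 0.57.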
